A study of Araneus ventricosus with 24 samples.

Results

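Metal transporters and chaperones carry zinc, copper and iron across membranes and hand them to the proteins that need them. They were followed here in RNA from the spider Araneus ventricosus. The members were every assembled gene cluster whose closest protein descriptions, in the NR or Swiss-Prot databases, name a zinc transporter, ZIP, copper transport, a copper-transporting ATPase, a copper chaperone, NRAMP, mitoferrin or ferroportin, with zipper proteins excluded. This rule found 44 of the 142219 clusters, and it used no expression value. Of the 44, 32 were kept as animal-type metal transporters or copper chaperones, and these are the subject of what follows. The other 12 were set apart as myosins, as bacterial by description or closest nucleotide match, or as unclear. The unclear kind lacks both an annotated ZIP domain and a numbered ZIP name. Several of them are also described as metal transporters, and all 12 are accounted for at the end.

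The cell keeps free zinc low by working 2 protein families against each other. ZIP proteins (the SLC39 family) move zinc into the cytosol from outside the cell or from internal stores, while ZnT proteins (the SLC30 family) move it out of the cytosol into vesicles, the Golgi or the outside. Copper is passed by small chaperones to its users, among them a copper-pumping ATPase of the secretory pathway. Iron and manganese enter through NRAMP proteins, and mitoferrins carry iron into mitochondria. In several animals some of these proteins are also known to carry cadmium.

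The series measured RNA from 2 tissues: the ampullate gland, which makes dragline silk, and the cerebral ganglia, the spider's central nervous tissue. The labels give 30 days for the metal exposures and no duration for the untreated spiders. In each tissue the groups were spiders given cadmium plus lead, lead alone, cadmium alone, and untreated spiders, all labelled in triplicate. The labels used here name no dose, route, age or sex. They also do not say whether different animals were used for each library, so a p-value reflects variation among libraries that may be technical. Of the 24 columns, 4 held the same counts as another replicate of their group (1 each in the lead and the cadmium plus lead groups of both tissues) and were counted once, which leaves 20 distinct libraries: per tissue 2 with cadmium plus lead, 2 with lead, 3 with cadmium and 3 untreated.

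The libraries held between 14834065 and 20954478 counts. Marker lists matched the tissue labels in part. Silk clusters took 5.17 to 18.4% of counts in the gland and 0.0319 to 0.646% in the ganglia. Nerve clusters took 0.110 to 0.175% in the gland and 0.225 to 1.09% in the ganglia, with syntaxin-1 at 0 in both. The muscle term "Actin, muscle" was at 0 except in ganglia libraries with lead. Muscle clusters took 0.101 to 0.883% in the gland and 3.997 to 7.72% in the ganglia, so the ganglia libraries also hold muscle RNA. In whole tissue, fewer cells of a type and less RNA per cell cannot be told apart.

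Zinc carriers made up most of the set. There were 14 ZIP clusters, of which 13 carry an annotated ZIP domain, and 9 ZnT clusters, all 9 with a cation efflux domain. Copper was represented by 1 copper ATPase cluster, the longest at 6662 bases, and 4 chaperone clusters of 397 to 667 bases. Iron was represented by 2 NRAMP clusters, described as Malvolio after the fruit fly NRAMP protein, and 2 mitoferrin clusters. No cluster was described as a ferroportin, the iron exporter of vertebrates. The closest described protein came from another spider for 28 of the 32. It came from a mite for the cluster described as mitoferrin-1 (Cluster-39969.0), from a termite for ZIP7 and from a planthopper for ATOX1, and COX17 was named from Swiss-Prot alone. Whether those clusters are spider transcripts was not tested.

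Several descriptions recur, so letters are added here to tell clusters apart, without implying isoforms. ZIP1a is Cluster-16698.46437 and ZIP1b is Cluster-16698.28670. ZIP3a is Cluster-16698.37395 and ZIP3b is Cluster-16698.19716. ZIP6a is Cluster-16698.26566, ZIP6b is Cluster-16698.61699, ZIP10a is Cluster-16698.36613 and ZIP10b is Cluster-16698.61700. Swiss-Prot describes ZIP6a as ZIP4. ZIP6b is named from Swiss-Prot, while its orthology name is SLC39A10. ZIP14a is Cluster-16698.5790 and ZIP14b is Cluster-16698.88443, which share a closest protein. ZnT1a is Cluster-16698.28183 and ZnT1b is Cluster-16698.65237. These also share a closest protein, so they may be parts of a single gene and are not independent of each other. Their log2 CPM values had a Pearson correlation of 0.889 over the 20 libraries. ZnT1c is Cluster-16698.51141 and ZnT1d is Cluster-16698.23996. NR describes ZnT1d as a zinc/cadmium resistance protein. The NRAMP clusters are Malvolio-a (Cluster-16698.58022) and Malvolio-b (Cluster-16698.51887).

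Levels between genes were compared in FPKM, which allows for cluster length. In the untreated gland, ZIP1a was highest among the members at 47.1 ± 20.4 FPKM (SD, n = 3). ZIP1 is a zinc importer of the cell surface in mammals. Mitoferrin-2 (Cluster-16698.47513), an iron carrier of the inner mitochondrial membrane, came next at 38.9 ± 13.5 FPKM, and ZIP7 (Cluster-16698.55569), which releases zinc from the endoplasmic reticulum in mammals and is called Catsup in the fruit fly, at 25.8 ± 22.0 FPKM. The ranges of these 3 overlap. ZIP9 (Cluster-16698.48611), ZnT2 (Cluster-16698.46488) and ZIP11 (Cluster-16698.49662) followed at 14.1 ± 3.29, 14.1 ± 19.5 and 12.5 ± 2.94 FPKM, and ZnT2 was high in 1 of the 3 libraries.

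In the untreated ganglia the same pair led, with ZIP1a at 102 ± 51.8 FPKM and mitoferrin-2 at 62.0 ± 1.57 FPKM (SD, n = 3). Their order does not exceed the spread of ZIP1a. The copper chaperone ATOX1 (Cluster-16698.31298), which delivers copper to the copper ATPase, stood at 21.2 ± 6.85 FPKM, and ZnT2, a vesicle loader in mammals, at 15.7 ± 3.67 FPKM. The clusters described as the chaperone for superoxide dismutase (CCS), CCS-a (Cluster-16698.58140) and CCS-b (Cluster-16698.58141), stood at 15.5 ± 7.06 and 14.0 ± 5.46 FPKM. CCS-a carries an annotated superoxide dismutase domain and CCS-b a heavy-metal domain, so they may be parts of a single gene. Their log2 CPM values had a Pearson correlation of 0.573 over the 20 libraries. The copper ATPase (Cluster-16698.53312), the pump that loads copper into the secretory pathway, stood at 3.21 ± 0.938 FPKM in the untreated gland and 2.75 ± 0.540 FPKM in the untreated ganglia. Malvolio-a stood at 7.23 ± 6.37 FPKM in the gland and 6.41 ± 1.51 FPKM in the ganglia, and ZnT9 (Cluster-16698.41333), linked to mitochondrial zinc in mammals, at 6.87 ± 1.97 FPKM in the gland and 7.29 ± 1.34 FPKM in the ganglia. These differ between tissues by less than their spread. The lowest members lay near 0 in both tissues, among them ZIP14b, which was too low to be tested in any fit.

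**Figure D1:**
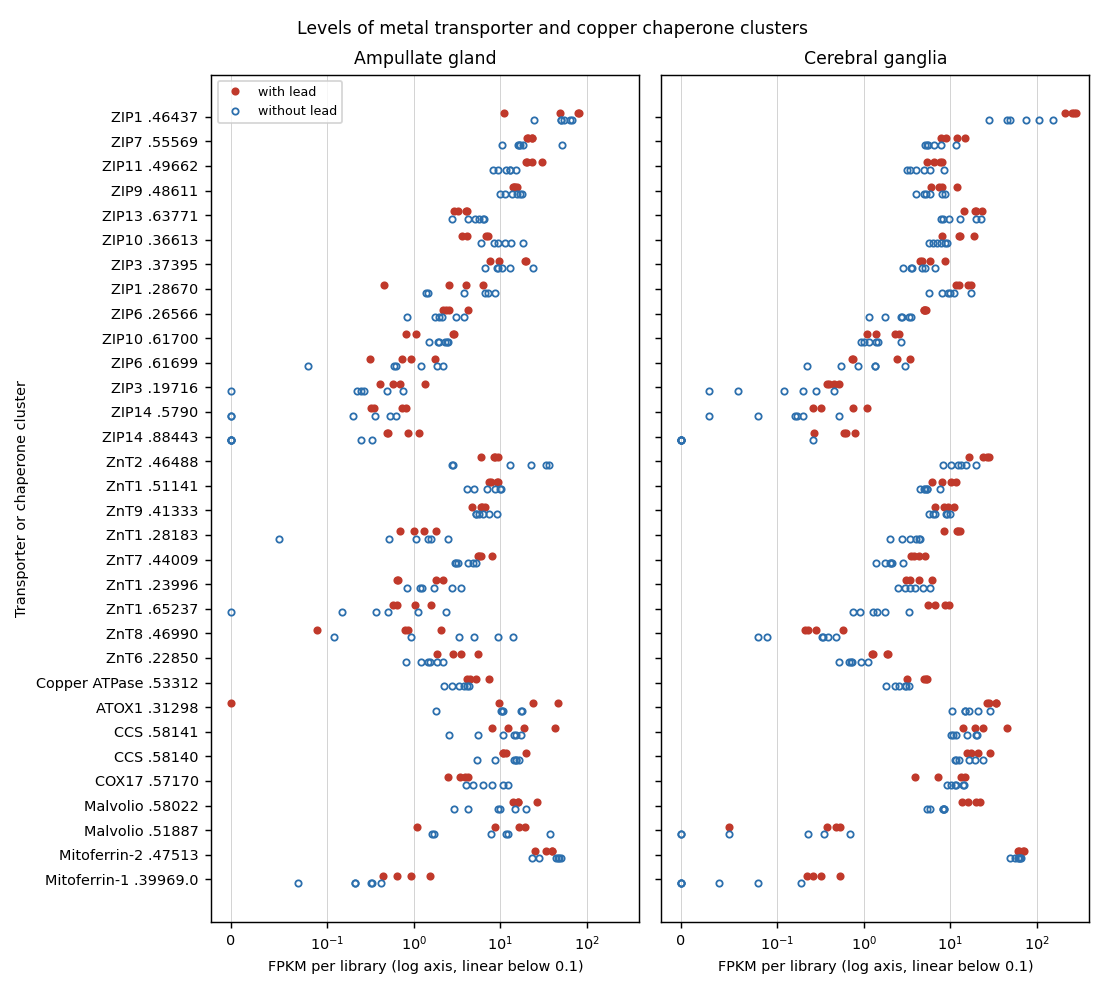
FPKM of each of the 32 transporter and chaperone clusters (rows, named by description and the last part of the cluster number) in each of the 20 libraries, ampullate gland on the left and cerebral ganglia on the right, on a log axis that is linear below 0.1. Filled red points are libraries with lead and open blue points libraries without. ZIP1a (Cluster-16698.46437) and mitoferrin-2 lie furthest to the right in the ganglia.

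Transporter levels differed between the gland and the ganglia. Over all 4 exposures, 17 of the 31 transporters and chaperones tested differed between the tissues, 9 higher in the gland and 8 lower. The 9 include mitoferrin-1, which passed the low-count filter only through the gland. Across all clusters tested, 34.1% differed, 15.8% higher and 18.4% lower, and the median difference of the members was -0.30 on the log2 scale. These calls come from edgeR's quasi-likelihood test on counts with Benjamini-Hochberg adjustment over all 51904 clusters tested, as do all adjusted p-values below within their own comparison, with calls at an adjusted p under 0.05. Levels of single clusters are given as CPM, counts scaled to library size and TMM factor.

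ZIP11 and ZIP13 separated the tissues in opposite directions. ZIP11, a zinc carrier placed at the Golgi in mammals, had 33.6 to 118.3 CPM in the gland (median 47.3, n = 10), against 14.8 to 25.4 CPM in the ganglia (median 19.7, n = 10). Every gland library stood above every ganglia library, with a log2 difference of 1.53 ± 0.18 (SE, adjusted p = 4.64e-06). ZIP13 (Cluster-16698.63771), a carrier of the secretory pathway that in the fruit fly supplies it with iron, had 9.33 to 23.1 CPM in the gland (median 14.1), against 27.0 to 66.2 CPM in the ganglia (median 50.6). Here every gland library was below every ganglia library, with a log2 difference of -1.88 ± 0.19 (adjusted p = 1.27e-06).

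Of the 2 Malvolio clusters, 1 was called between the tissues. Malvolio-b had 1.33 to 37.0 CPM in the gland (median 10.3), against 0 to 0.815 CPM in the ganglia (median 0.307). The groups did not overlap, and the gland was 32.1-fold higher (log2 5.01 ± 0.76, adjusted p = 0.000105). Without ganglia untreated replicate 2 the log2 difference was 5.70. Malvolio-a was expressed in both tissues and was not called. All libraries of the gland stood above all of the ganglia for ZIP11 and Malvolio-b among the members, a pattern that 1.51% of all clusters tested showed. The opposite pattern was seen in ZIP13 among the transporters and in 4.94% of all clusters.

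Among the remaining zinc importers, ZIP3a (log2 1.29 ± 0.20), ZIP9 (1.04 ± 0.19) and ZIP7 (1.37 ± 0.29) were higher in the gland. ZIP1a (-1.30 ± 0.38, adjusted p = 0.0153) and ZIP1b (-1.59 ± 0.41) were lower there. The call for ZIP1a was lost without gland lead replicate 1 (adjusted p = 0.0612). Without gland cadmium plus lead replicate 1 the log2 differences were -2.06 for ZIP1a and -2.42 for ZIP1b. In mammals ZIP1 and ZIP3 sit at the cell surface, while ZIP7 and ZIP9 act at internal membranes.

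The ZnT exporters split evenly, with 3 higher in the gland and 3 lower. ZnT1a, of the family that pumps zinc out through the plasma membrane in mammals, had 0.0618 to 3.39 CPM in the gland (median 1.45), against 3.32 to 15.8 CPM in the ganglia (median 5.06). The groups overlapped only at their edges, and the log2 difference was -2.48 ± 0.40 (adjusted p = 0.00012). ZnT1b (-2.19 ± 0.49) and ZnT1d (-1.27 ± 0.37) were also lower in the gland. ZnT6 (Cluster-16698.22850, log2 0.998 ± 0.22), ZnT7 (Cluster-16698.44009, 0.79 ± 0.20) and ZnT8 (Cluster-16698.46990, 2.74 ± 0.67) were higher there. ZnT6 and ZnT7 load the early secretory pathway and ZnT8 loads secretory granules in mammals. The ZnT8 cluster carries the orthology name SLC30A2, as the ZnT2 cluster does, so which of these it is remains unsettled. ZnT7's call was lost without ganglia cadmium plus lead replicate 1 (adjusted p = 0.0702), ganglia lead replicate 1 (0.0636), ganglia lead replicate 2 (0.0523) or gland cadmium plus lead replicate 1 (0.052), and ZnT8's without gland cadmium plus lead replicate 2 (0.0615, log2 1.99). With no filter on low counts, and so more clusters tested, the calls of ZnT6 (adjusted p = 0.0818) and ZnT7 (0.161) were lost.

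Mitoferrin-2 had 30.0 to 84.1 CPM in the gland (median 66.7), against 82.0 to 140.4 CPM in the ganglia (median 112.7), with a log2 difference of -0.75 ± 0.20 (adjusted p = 0.00696). The ranges overlapped only slightly. Mitoferrin-1, at low levels, was higher in the gland (2.11 ± 0.56, adjusted p = 0.00769), a call lost without ganglia lead replicate 1 (0.0513). It was too low to be tested in the ganglia alone and passed the low-count filter only through the gland. Its call therefore follows in part from the filter and supports nothing. COX17 (Cluster-16698.57170), which brings copper to cytochrome c oxidase, was lower in the gland (-0.94 ± 0.30, adjusted p = 0.0229). That call was lost without ganglia cadmium plus lead replicate 2 (0.0888), ganglia lead replicate 1 (0.0664), ganglia lead replicate 2 (0.0628), gland cadmium plus lead replicate 2 (0.0709) or gland lead replicate 2 (0.0923), and with no filter on low counts (0.0814). The muscle share given above differs between the tissues in the same comparison, and its part in these differences was not tested.

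**Figure D2:**
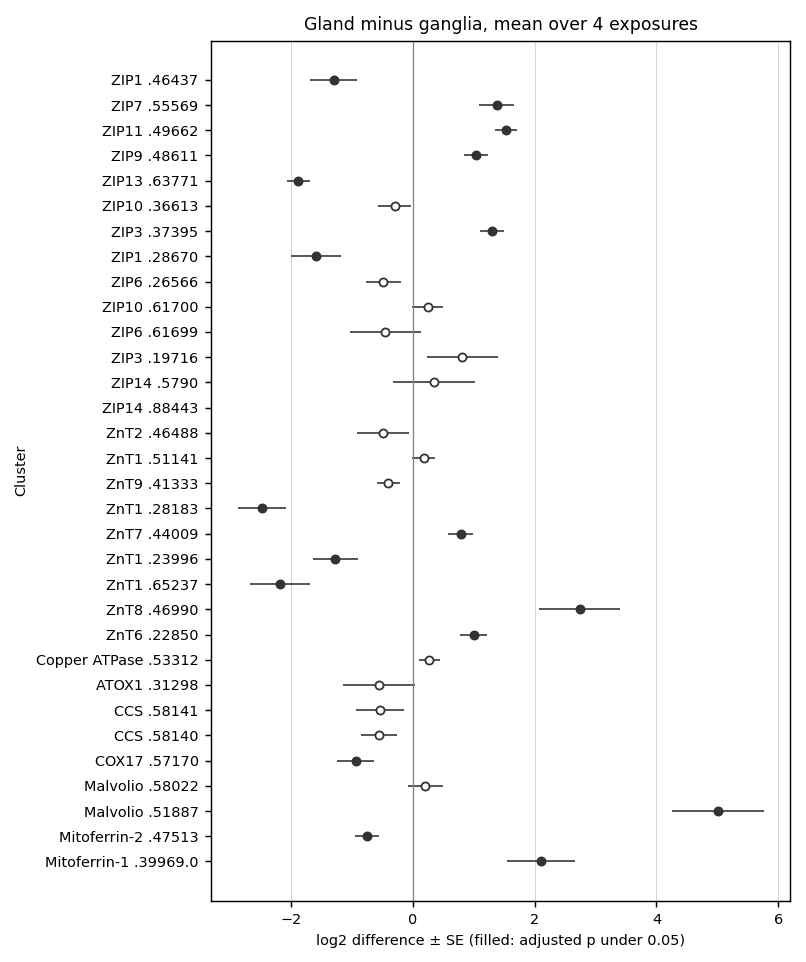
Log2 difference of gland minus ganglia, averaged over the 4 exposures, with its standard error, for each transporter and chaperone cluster tested (rows). Filled points passed an adjusted p of 0.05, 9 to the right of 0 and 8 to the left, with Malvolio-b (Cluster-16698.51887) farthest right at 5.01.

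Without metal, 3 of the 31 transporters tested (9.68%) differed between the tissues, beside 10.3% of all clusters tested. ZIP11 was higher in the untreated gland (log2 1.41 ± 0.31, adjusted p = 0.00831), a call lost with no filter on low counts (0.0675) and when only the untreated libraries were fitted (0.055). ZnT1a was lower (-2.86 ± 0.72, adjusted p = 0.0182), a call lost when only the untreated libraries were fitted (0.116). Without gland untreated replicate 2 its log2 difference was -3.996. ZIP7 had 9.55, 63.7 and 18.7 CPM in the untreated gland, against 6.66, 9.09 and 7.45 CPM in the untreated ganglia. All gland values were higher, with a log2 difference of 1.98 ± 0.52 (adjusted p = 0.0217), but a single gland library, replicate 2, carried much of it. Without that library the log2 difference was 0.86 (adjusted p = 0.121), and the call was also lost without ganglia untreated replicate 1 (0.0884) or 3 (0.0831), and when only the untreated libraries were fitted (0.132).

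In the ganglia, zinc exporters, a zinc importer and an NRAMP transporter were higher in the libraries with lead. The 4 ganglia libraries with lead (cadmium plus lead, and lead alone) were set against the 6 without (cadmium alone, and untreated), with cadmium balanced between the sides. Of 30 transporters tested, 5 rose and 0 fell, a share of 16.7%, against 12.2% of all clusters tested, 6.54% higher and 5.69% lower. The log2 change was positive for 24 of the 30 (80.0%, beside 48.1% of all clusters), with a median of 0.29, beside a median of -0.04 over all clusters. All 13 ZIP clusters tested and 6 of the 9 ZnT clusters had a positive change, some of them near 0. Clusters are not independent of each other, and these counts were not tested.

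ZnT1a had 15.8 and 8.03 CPM in the cadmium plus lead ganglia and 12.6 and 11.3 CPM in the lead ganglia, against 3.32 to 5.74 CPM (median 4.23) in the 6 ganglia libraries without lead. All 4 libraries with lead were higher than any without, and the cadmium libraries lay among the untreated ones. The change was 2.71-fold (log2 1.44 ± 0.24, adjusted p = 0.00848). ZnT1b, from the same closest protein, had 5.40 and 3.54 CPM with cadmium plus lead and 6.09 and 6.06 CPM with lead, against 0.627 to 2.22 CPM (median 1.21) without lead. It did not overlap either and rose 4.01-fold (log2 2.005 ± 0.34, adjusted p = 0.00911). Both calls held under all 17 alternatives run. In all, 5 transporters had every library with lead above every library without, a separation that 6.15% of all clusters tested showed.

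ZnT7, described as ZnT5 in Swiss-Prot and thus one of the zinc loaders of the early secretory pathway, had 9.73 and 9.99 CPM with cadmium plus lead and 7.62 and 8.38 CPM with lead, against 4.47 to 5.94 CPM (median 5.53) without. The sides did not overlap, and the change was 1.66-fold (log2 0.73 ± 0.19, adjusted p = 0.0373). This call rests on nearly every library. It was lost without cadmium plus lead replicate 1 (adjusted p = 0.0993) or 2 (0.117), cadmium replicate 2 (0.0685) or 3 (0.0523), lead replicate 1 (0.126) or 2 (0.133), or untreated replicate 1 (0.0562) or 3 (0.0675). It was also lost with no filter on low counts (0.0813) and with a trend along cluster length removed (0.102).

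ZIP1a, the most abundant zinc importer, had 579.8 and 431.0 CPM with cadmium plus lead and 375.5 and 397.9 CPM with lead, against 51.1 to 318.0 CPM (median 165.8) without lead. All libraries with lead were higher, while those without spread widely. The change was 2.76-fold (log2 1.47 ± 0.39, adjusted p = 0.0363). The call was lost without cadmium plus lead replicate 1 (adjusted p = 0.0999) or 2 (0.0825), cadmium replicate 2 (0.0584) or 3 (0.0698), lead replicate 1 (0.107) or 2 (0.109), or untreated replicate 1 (0.0719) or 3 (0.0611). It was also lost with a trend along cluster length removed (0.0553).

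Malvolio-a, a carrier of iron and manganese, had 37.6 and 24.8 CPM with cadmium plus lead and 40.4 and 40.0 CPM with lead, against 12.7 to 26.2 CPM (median 17.4) without. The sides met only where cadmium plus lead replicate 2 fell below cadmium replicate 1. The change was 1.91-fold (log2 0.93 ± 0.22, adjusted p = 0.0263). It was lost as a call without cadmium plus lead replicate 1 (adjusted p = 0.0955), cadmium replicate 2 (0.0512), lead replicate 1 (0.0968) or lead replicate 2 (0.081), and with a trend along cluster length removed (0.06).

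Other members came near the threshold without passing it. ZnT6 had 4.21 and 3.35 CPM with cadmium plus lead and 5.37 and 4.83 CPM with lead, against 2.20 to 3.01 CPM (median 2.68) without, with no overlap (log2 0.72 ± 0.23, adjusted p = 0.0664). The copper ATPase stood at 0.49 ± 0.16 (adjusted p = 0.0731) and ZnT2 at 0.57 ± 0.20 (0.0864). COX17 was the member closest to a lower call, at -0.81 ± 0.25 (0.0587). Mitoferrin-2, abundant in this tissue, stood at -0.18 ± 0.20 (0.588).

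The less abundant importers were described after their values were seen. ZIP6a, of a family that imports zinc at the cell surface in mammals, had 14.01 to 18.4 CPM in ganglia libraries with lead, against 5.55 to 15.8 CPM without, overlapping in 1 untreated library (log2 0.72 ± 0.27, adjusted p = 0.1001). ZIP14a, whose mammalian counterpart carries iron and manganese as well as zinc, had 0.628 to 2.06 CPM with lead, against 0.0627 to 1.01 CPM without (1.47 ± 0.60, adjusted p = 0.124). ZIP10a stood at 0.51 ± 0.26 (0.201) in the ganglia and at -0.88 ± 0.47 (0.276) in the gland, with opposite signs. ZIP3b, ZIP6b and ZIP10b stood at 0.96, 0.24 and 0.05 in the ganglia, none past the test. ZIP14b, too low to test, had 0.232 to 0.442 CPM in gland libraries with lead, against 0 to 0.136 CPM without. Of the other exporters in the ganglia, ZnT1c stood at 0.40 ± 0.20 (0.198), ZnT9 at -0.11 ± 0.16 (0.673) and ZnT8 at -0.17 ± 0.67 (0.890). The chaperones ATOX1, CCS-b and CCS-a stood at 0.29 ± 0.35, 0.23 ± 0.48 and -0.03 ± 0.38, with adjusted p-values of 0.600, 0.774 and 0.965.

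**Figure D3:**
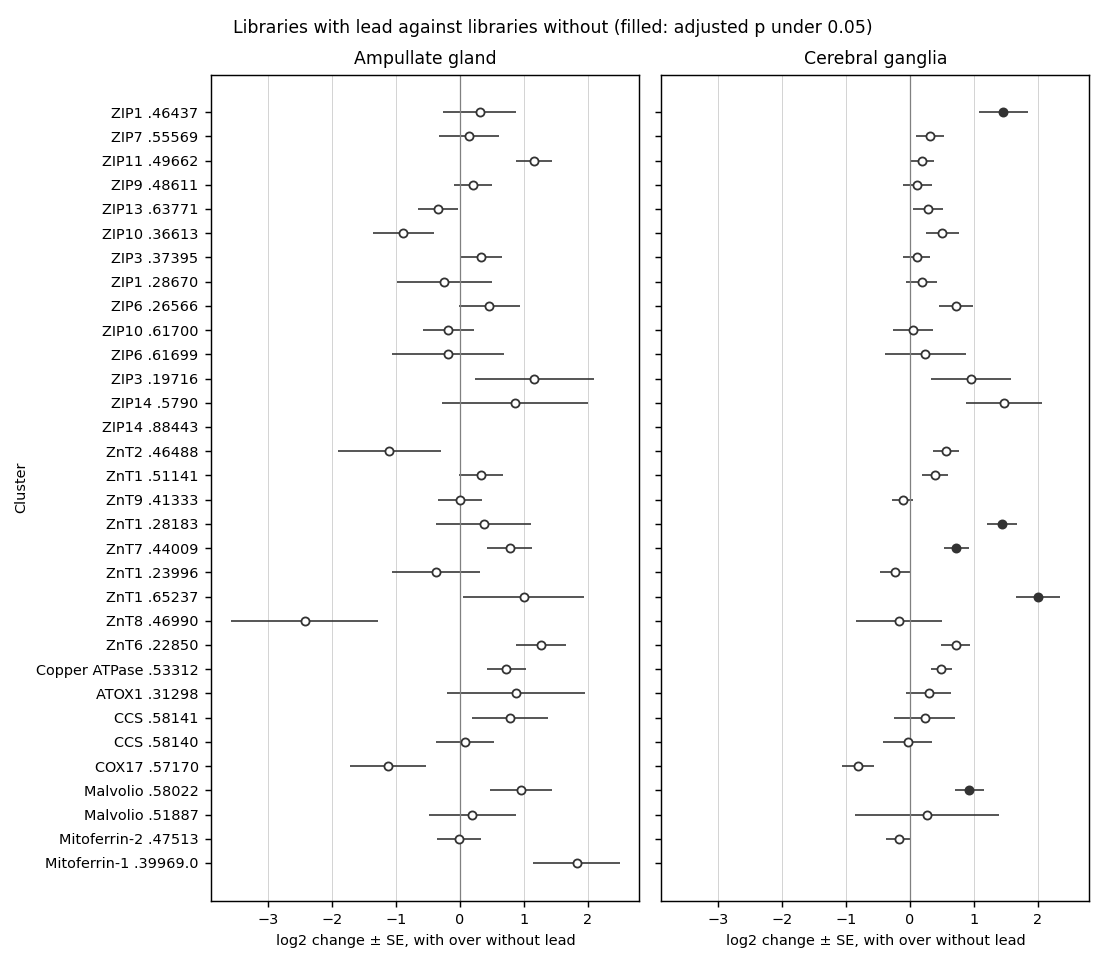
Log2 change of libraries with lead over libraries without, with its standard error, for each transporter and chaperone cluster tested (rows), gland on the left and ganglia on the right. Filled points passed an adjusted p of 0.05: 5 in the ganglia, all to the right of 0, and 0 in the gland.

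Several properties of the libraries split along the same line. The mean fragment length implied by the FPKM values was 271.1 to 281.2 bases in ganglia libraries with lead, against 247.9 to 261.9 bases without. Clusters whose nucleotide match names Pseudomonas, Delftia or Acinetobacter held 0.633 to 1.93 CPM with lead, against 32.2 to 110.4 CPM without. The single mitochondrial cluster with the most counts took 11.8 to 13.6% of counts with lead, against 18.2 to 35.4% without. In the gland, fragments were 277.2 to 278.3 bases with lead and 246.9 to 273.4 bases without. Clusters of the same bacterial genera held 1.28 to 16.4 CPM with lead and 64.8 to 247.8 CPM without. The share of that mitochondrial cluster overlapped in the gland, at 5.36 to 14.2% with lead and 7.90 to 15.5% without. Lead exposure and the preparation of the libraries therefore cannot be told apart in either tissue. Comparisons of cadmium with untreated, and of cadmium plus lead with lead, lie within one side of this split.

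Markers of other cell types were less divided in the ganglia. Muscle clusters (118 listed) took 4.35 to 7.01% of counts with lead and 3.997 to 7.72% without. Nerve clusters (128) took 0.277 to 0.883% with lead and 0.225 to 1.09% without. Hemolymph clusters (24) took 0.331 to 2.71% with lead and 0.215 to 1.62% without, with prophenoloxidase, hemolectin and peroxinectin at 0 in all libraries. Midgut clusters (194) took 0.465 to 0.824% with lead and 0.164 to 0.67% without. These ranges overlapped in each case, and their part in the changes above was not tested.

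**Figure D4:**
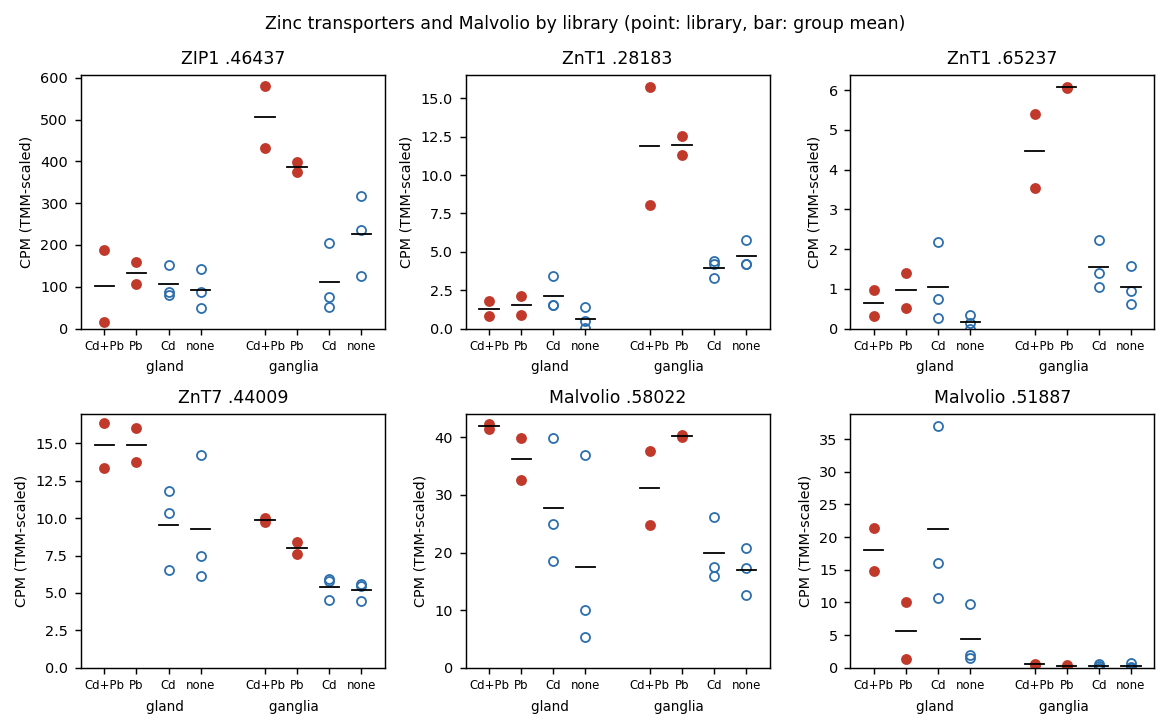
TMM-scaled CPM of 6 clusters (panels) by library, in gland (left of each panel) and ganglia (right), for cadmium plus lead, lead, cadmium and no metal. Points are libraries, filled red with lead and open blue without, and bars are group means. In the ganglia ZnT1a, ZnT1b, ZIP1a (Cluster-16698.46437) and ZnT7 stand higher in all 4 libraries with lead than in any without.

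Levels were also summed over each family in FPKM. In the ganglia the ZIP family summed to 294 to 362 FPKM with lead, against 93.2 to 208.5 FPKM without. ZIP1a alone accounted for 209.1 to 278.2 FPKM of this with lead, against 28.1 to 151.7 FPKM without. The ZnT family summed to 66.9 to 73.4 FPKM with lead, against 28.1 to 47.6 FPKM without, and the NRAMP pair to 13.9 to 22.2 FPKM, against 5.79 to 8.68 FPKM. These 3 sums did not overlap between the sides. Those of the copper ATPase, the copper chaperones and the mitoferrins did. FPKM is not corrected for the share of the mitochondrial cluster given above, so these sums also move with it.

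The separate comparisons with untreated ganglia share the untreated libraries, so their values are given side by side and are not independent. With lead alone, ZnT1b was the transporter that passed the test, at 5.69-fold (log2 2.51 ± 0.49, adjusted p = 0.0282), where 4.92% of all clusters did. That call was lost without lead replicate 1 (adjusted p = 0.139) or 2 (0.213), or untreated replicate 2 (0.0512) or 3 (0.0684), and when only the libraries compared were fitted (0.0582). ZnT1a stood at 1.32 ± 0.34 (0.0513), a value that passed without cadmium plus lead replicate 1 (0.0488) or 2 (0.0414). It also passed by DESeq2 (0.0104) and, in edgeR, with DESeq2 size factors (0.0489), with 1 CPM required (0.0422) and with no filter on low counts (0.024). Under 11 of the 18 alternatives it stayed uncalled, with an adjusted p of up to 0.287. Malvolio-a stood at 1.23 ± 0.32 (0.0514) and ZnT6 at 1.06 ± 0.32 (0.0817). With lead alone, 7 members had an unadjusted p under 0.05 (21.2% of those tested, beside 24.9% of all clusters). DESeq2 called 5 (15.2%, beside 13.8% of all clusters).

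With cadmium plus lead, 0 members passed against untreated ganglia by edgeR, where 1.06% of all clusters did. At an unadjusted p under 0.05 there were 7 members (21.2% of those tested, beside 22.1% of all clusters), and DESeq2 called 5 (15.2%, beside 10.04% of all clusters). ZnT1b stood at log2 2.07 ± 0.49 (adjusted p = 0.0636), ZnT1a at 1.32 ± 0.34 (0.0728) and ZnT7 at 0.91 ± 0.27 (0.0984). COX17 had 1.57 and 2.30 CPM with cadmium plus lead, against 6.40, 5.01 and 4.86 CPM in untreated ganglia, with no overlap (log2 -1.50 ± 0.36, adjusted p = 0.0684). The lead ganglia, with 4.74 and 4.56 CPM, lay just below the untreated range.

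With cadmium alone, 0 members passed against untreated ganglia by edgeR, where 0% of all clusters did, with 3 members at an unadjusted p under 0.05 (9.09%, beside 7.62% of all clusters) and 0 called by DESeq2 (0.323% of all clusters). Transporters alone were 2 (6.67%) at an unadjusted p under 0.05. The median change of the 30 transporters was -0.08, beside -0.02 over all clusters. ZIP1b had 10.5, 9.71 and 11.3 CPM with cadmium, against 14.2, 15.4 and 30.6 CPM in untreated ganglia, all lower (log2 -0.93 ± 0.31, adjusted p = 0.620). ZnT2 had 15.3, 12.3 and 14.7 CPM with cadmium, against 22.7, 27.3 and 21.5 CPM untreated, also without overlap (-0.76 ± 0.26, adjusted p = 0.621). Neither passed the test. The share of all clusters that separate between groups this small was not counted. The separations named for single exposures against untreated, and between untreated tissues, are therefore descriptions only.

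The remaining pair of ganglia comparisons set the combined exposure against each metal alone. Against cadmium alone, cadmium plus lead changed 0 members by edgeR, where 0.908% of all clusters were called, with 9 members at an unadjusted p under 0.05 (27.3%, beside 17.8% of all clusters) and 6 called by DESeq2 (18.2%, beside 6.96% of all clusters). ZnT1a stood at log2 1.56 ± 0.34 (adjusted p = 0.0602), ZnT2 at 1.23 ± 0.28 (0.0665), ZIP1a at 2.17 ± 0.55 (0.0840) and COX17 at -1.38 ± 0.36 (0.0913). Of the 30 transporters, 25 (83.3%, beside 47.8% of all clusters) were positive and 9 (30.0%) had an unadjusted p under 0.05. Against lead alone, cadmium plus lead changed 0 members and 0% of all clusters by edgeR, with 1 member at an unadjusted p under 0.05 (COX17, -1.26 ± 0.38, adjusted p = 0.824), beside 5.8% of all clusters, and 0 called by DESeq2, beside 0.435%.

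In the gland, 0 of 31 transporters passed the test in any exposure comparison by edgeR. For libraries with lead against those without, 1.68% of all clusters were called. At an unadjusted p under 0.05 were 5 transporters, 16.1% of those tested, beside 25.1% of all clusters. DESeq2 called 5 members, 14.7% of those tested, beside 15.6% of all clusters, and ZIP11 and the myosin Cluster-16698.50645 were among them. The lowest adjusted p of a transporter by edgeR in the main fit was 0.0677, for ZIP11. It had 81.8 and 56.9 CPM with cadmium plus lead and 118.3 and 74.8 CPM with lead, against 33.6 to 60.0 CPM (median 36.7) without lead. The sides overlapped through untreated replicate 2, and the log2 change was 1.16 ± 0.28. Without that untreated library the adjusted p was 0.0393. ZIP11 was also called by DESeq2 (adjusted p = 0.00635) and when at least 1 CPM in 3 libraries was required (0.0436). It stayed uncalled under 14 of the 18 alternatives, with an adjusted p of up to 0.428.

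ZnT6 had 7.003 and 12.0 CPM with cadmium plus lead and 12.4 and 9.21 CPM with lead in the gland, against 2.98 to 6.12 CPM (median 4.76) without, and the sides did not overlap (log2 1.28 ± 0.39, adjusted p = 0.109). Such a separation was seen in 6.06% of all gland clusters tested, and ZnT6 was the transporter that showed it. Mitoferrin-1 stood at 1.83 ± 0.68 (0.146), the copper ATPase at 0.73 ± 0.31 (0.177) and ZnT7 at 0.78 ± 0.35 (0.199). The median over the 31 transporters was 0.31, beside -0.16 over all clusters, and 21 (67.7%, beside 45.5% of all clusters) were positive. The muscle share was 0.101 to 0.342% in gland libraries with lead, against 0.332 to 0.883% without, and the hemolymph share was 0.00991 to 0.120%, against 0.0578 to 0.814%. Their part was not tested.

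Against untreated glands, 0 members passed with cadmium plus lead by edgeR (0.225% of all clusters did), with 5 at an unadjusted p under 0.05 (14.7%, beside 14.9% of all clusters) and 1 called by DESeq2 (2.94%, beside 7.22%). With lead alone, 0 members and 0% of all clusters passed by edgeR, with 4 members at an unadjusted p under 0.05 (11.8%, beside 11.9% of all clusters) and 0 called by DESeq2 (4.04% of all clusters). With cadmium alone, 0 members and 0% of all clusters passed by edgeR, with 1 member at an unadjusted p under 0.05 (2.94%, beside 2.86% of all clusters) and 0 called by DESeq2 (0.218% of all clusters). Members here include the myosins set apart at the end, and the 1 called by DESeq2 was the myosin Cluster-16698.44898. Transporters alone at an unadjusted p under 0.05 were 3 (9.68%) with cadmium plus lead. They were 2 (6.45%) with lead and 1 (3.23%) with cadmium. These comparisons share the untreated libraries. ZIP3a stood at log2 1.32 ± 0.46 with cadmium plus lead (adjusted p = 0.253) and at 0.92 ± 0.42 with cadmium (adjusted p = 1). ZIP11 stood at 1.29 ± 0.40 with lead (adjusted p = 0.315).

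Malvolio-b, the NRAMP cluster seen mainly in the gland, had 21.4 and 14.8 CPM with cadmium plus lead, 1.33 and 10.02 CPM with lead, and 10.6, 37.0 and 16.0 CPM with cadmium, against 1.56, 9.82 and 1.92 CPM untreated. All libraries with cadmium, alone or with lead, stood above the untreated ones, as did 1 of the 2 lead libraries. The log2 changes were 2.25 ± 0.96 with cadmium plus lead (adjusted p = 0.324) and 2.40 ± 0.91 with cadmium (adjusted p = 1), and neither passed. The cadmium value was 1.72 without gland cadmium replicate 2 and 3.64 without gland untreated replicate 2. ZnT1a stood at 1.85 ± 0.99 with cadmium (adjusted p = 1), and at 2.89 without gland untreated replicate 2 and 1.19 without gland untreated replicate 3.

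Between exposed glands, cadmium plus lead against cadmium changed 0 members and 0% of all clusters by edgeR, with 4 members at an unadjusted p under 0.05 (11.8%, beside 11.3% of all clusters) and 2 called by DESeq2 (5.88%, beside 4.17%). Cadmium plus lead against lead changed 0 members and 0% of all clusters, with 1 at an unadjusted p under 0.05 (2.94%, beside 2.03% of all clusters) and 0 by DESeq2 (0.351% of all clusters). Transporters alone at that unadjusted p were 2 (6.45%) against cadmium and 1 (3.23%) against lead. Whether exposure effects differed between the tissues was tested directly with the exposure by tissue interaction. Here 0 members and 0% of all clusters passed, 0 members had an unadjusted p under 0.05 (6.14% of all clusters did), DESeq2 called 0 members (1.1% of all clusters), and the lowest adjusted p of a member was 0.827. The calls seen in the ganglia and not in the gland are therefore not shown to differ between the tissues.

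**Figure D5:**
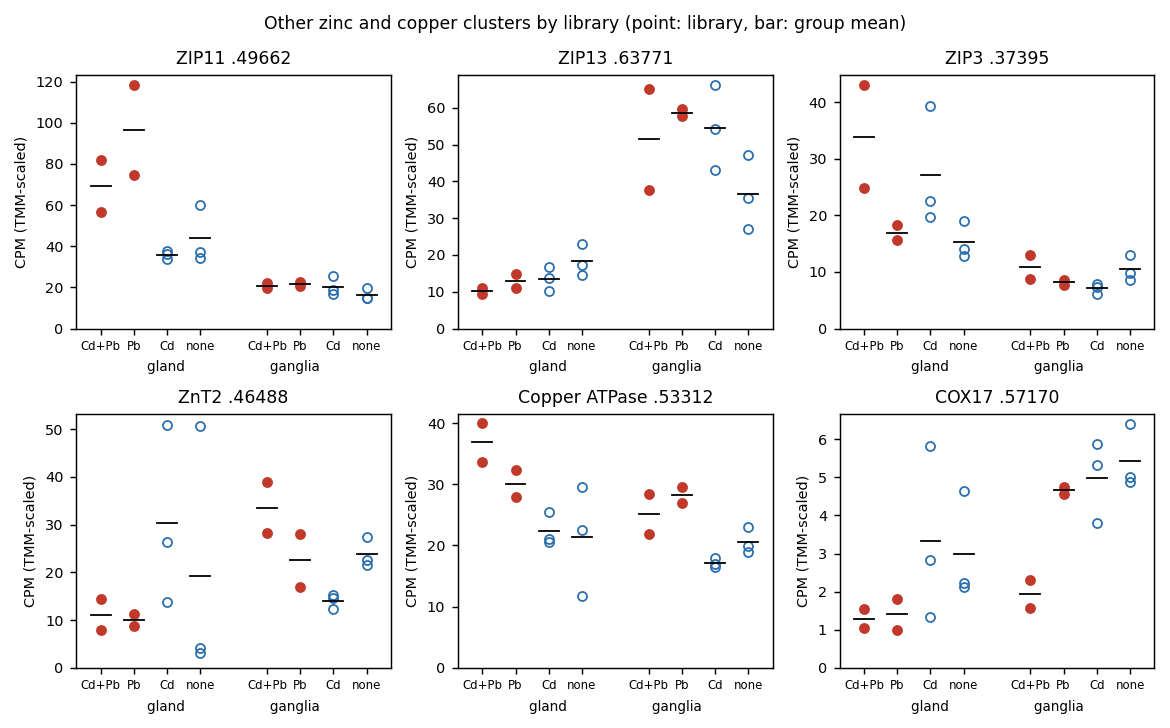
TMM-scaled CPM of 6 further clusters (panels) by library, in gland (left of each panel) and ganglia (right), for cadmium plus lead, lead, cadmium and no metal. Points are libraries, filled red with lead and open blue without, and bars are group means. ZIP11 lies between 33.6 and 118.3 CPM in the gland and between 14.8 and 25.4 CPM in the ganglia, and ZIP13 shows the opposite order.

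The wider metal-handling list held 54 clusters, among them metallothioneins, ferritins, transferrins, copper uptake proteins and copper-zinc superoxide dismutases. In the gland 0 of the 42 tested passed in any exposure comparison by edgeR, with 1 to 12 at an unadjusted p under 0.05. The 12, for libraries with lead against those without, are 28.6% of those tested, beside 25.1% of all clusters. In the ganglia 38 were tested, and 2 of them (5.26%, beside 4.92% of all clusters) were called with lead alone against untreated. One was a soma ferritin (Cluster-16698.1316), an iron storage protein, listed with 2.54 and 2.77 CPM in the lead ganglia and 0 in the 18 other libraries of both tissues. It passed the low-count filter only through that group, so its call follows from the filter and supports nothing. The one that fell was a copper-zinc superoxide dismutase (Cluster-16698.48953), an enzyme that receives its copper from CCS. It had 63.0 and 68.3 CPM in lead ganglia, against 179.9, 208.7 and 292.4 CPM in untreated ganglia, with no overlap (log2 -1.80 ± 0.44, adjusted p = 0.0453). The cadmium ganglia, at 57.7 to 140.4 CPM, also lay below the untreated ones, and cadmium plus lead ganglia had 112.2 and 196.3 CPM. Neither CCS cluster passed the test in that comparison.

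For all ganglia libraries with lead against those without, 1 listed cluster fell and 0 rose, 2.63% of those tested, beside 12.2% of all clusters (5.69% lower). It was another soma ferritin (Cluster-16698.42205), with 0.383 to 1.62 CPM with lead, against 1.38 to 3.22 CPM without, with some overlap (log2 -1.46 ± 0.37, adjusted p = 0.0307). The median change of the 38 was -0.19. Of the 2 metallothionein and 4 copper uptake clusters, 0 were called in that comparison by edgeR, with 1 of each at an unadjusted p under 0.05. Between the tissues over all exposures, 4 of 45 listed clusters (8.89%) were higher in the gland and 11 (24.4%) lower, beside 15.8% and 18.4% of all clusters.

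The clusters whose pattern over the 20 libraries was most like that of the copper ATPase were sulfhydryl oxidase 1 (Spearman 0.901), carbonic anhydrase 1 (0.88) and glucosidase 2 subunit beta (0.871). For Malvolio-a they were neural-cadherin (0.928), Bcl-2 (0.913) and subunit 1 of the conserved oligomeric Golgi complex (0.911). These were the highest of 8302 described clusters compared on log2(CPM + 1). All points share the tissue and library differences given above, and no test was made.

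The 12 members set apart were of 3 kinds. There were 8 short clusters of 314 to 490 bases, with reads in 1 to 4 libraries each, that name a bacterial protein such as ZitB, PacS or ZipA or whose closest nucleotide match is a bacterial chromosome or plasmid. Some of these carry other metal transporter names, among them ZIP10 (Cluster-291.0), zinc transporter 9 (Cluster-11740.0) and the copper-transporting ATPase RAN1 (Cluster-4679.0). Cluster-16698.3507 is described as the zinc transporter Slc39a7 but has no annotated ZIP domain. Nor has it a numbered ZIP name, for which ZIP14b was kept without such a domain. The Slc39a7 cluster had 29.0 CPM in ganglia cadmium plus lead replicate 2 and reads in 3 libraries in all. The last 3 were non-muscle myosin heavy chains, caught because their fruit fly gene is called zipper and abbreviated zip. These motor proteins do not carry metals. One of them, Cluster-16698.44898, was the member called in the gland with lead, at 172.9 and 173.2 CPM with cadmium plus lead and 189.1 and 125.2 CPM with lead, against 11.2 to 73.2 CPM (median 26.5) without lead (log2 2.59 ± 0.51, adjusted p = 0.0422). The sides did not overlap. The call was lost without gland cadmium plus lead replicate 1 (adjusted p = 0.0592) or 2 (0.103), cadmium replicate 1 (0.128), 2 (0.0873) or 3 (0.106), or lead replicate 1 (0.111), and with a trend along cluster length removed (0.0555).

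In the ganglia the same myosin had 29.9 and 45.8 CPM with cadmium plus lead and 45.0 and 47.0 CPM with lead, against 10.97 to 28.6 CPM (median 18.9) without (log2 1.08 ± 0.22, adjusted p = 0.0155). It was also called with lead alone against untreated ganglia (1.54 ± 0.31, adjusted p = 0.0306). The first of these calls was lost without cadmium plus lead replicate 2 (0.0546), lead replicate 1 (0.0605) or lead replicate 2 (0.0539), and the second without lead replicate 1 (0.143) or 2 (0.228), or untreated replicate 2 (0.0523) or 3 (0.0652), with a length trend removed (0.0522), or when only the libraries compared were fitted (0.0588). Against untreated libraries it stood at log2 1.25 ± 0.31 in cadmium plus lead ganglia (adjusted p = 0.0693), 0.63 ± 0.28 in cadmium ganglia (0.653), 2.53 ± 0.72 in cadmium plus lead glands (0.182) and 2.35 ± 0.72 in lead glands (0.313). Without gland untreated replicate 2 the gland values were 3.55 and 3.36. Cluster-16698.50645 stood at 1.31 ± 0.31 in glands with lead against those without (0.0614), a value that passed without gland untreated replicate 2 (0.0357), and at 1.34 ± 0.43 (0.224) with cadmium plus lead and 1.06 ± 0.43 (0.398) with lead against untreated glands. Between the tissues all 3 myosins were called, Cluster-16698.50645 (log2 1.0) and Cluster-16698.44898 (1.31) higher in the gland and Cluster-16698.47236 (-0.87) lower.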

How the data were processed

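The authors deposited a table of estimated counts per assembled cluster and, for the same clusters and 24 columns, a table of FPKM. Per the labels, an RNeasy kit gave the RNA and a SMARTER mRNA-Seq kit the libraries. Which assembler, aligner and counter made the values is not given in the sources used here. That the second deposited table is FPKM was judged from its values, since its header names no unit. Library totals ran from 14834065 to 20954478, and 4.99% of the deposited counts were not whole, so counts were rounded before testing. Low clusters are limited by these depths. Copied columns were found by equal counts in every cluster.

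Counts of each tissue entered a single fit in edgeR 4.0.16 in R 4.3.3 (filterByExpr, TMM, robust glmQLFit, glmQLFTest, 1 mean per group), and both tissues together for tissue differences and the interaction. All groups of a fit share their spread, which lends the groups of 2 libraries the variability of the others. Standard errors are the log2 change divided by the square root of the F statistic. P-values were adjusted by Benjamini-Hochberg over all clusters tested, with 0.05 as the threshold for a call. Members passed the low-count filter as follows: 34 in the gland, 33 in the ganglia and 35 over both, of which 31, 30 and 31 were transporters or chaperones. CPM values are scaled by TMM over the 20 libraries, and FPKM served only to set clusters side by side and to imply fragment length (clusters with over 200 counts). Tables were made with Python 3.11.15.

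The members, lists and comparisons were chosen with earlier results of these data known. Named were members called in any comparison, the pair of highest mean FPKM per role and tissue, and, per exposure comparison, the 3 of lowest unadjusted p with a mean of at least 1 CPM. Others were named after their values were seen. Members were sorted into roles by their descriptions and, unlike the plan, which named descriptions only, also by Pfam domain and closest nucleotide match. Alternatives were DESeq2 1.42.0, its size factors, other filters on low counts, copies counted as libraries, silk clusters left out, only the libraries compared, a replicate block, a length trend removed, and each library left out.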

Additional observations from a re-analysis of the deposited data

How the results depend on the processing

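Over 50 member values and 1113 alternatives, 1011 kept their direction and side of the threshold, 71 lost a call, 31 gained one and 0 turned round. With the deposited copies counted as libraries, the number of members called was 1 for gland lead, 3 for gland cadmium plus lead, 1 for gland cadmium plus lead against cadmium, 7 for gland with lead, 7 for ganglia lead, 6 for ganglia cadmium plus lead, 8 for ganglia cadmium plus lead against cadmium, 11 for ganglia with lead and 12 between untreated tissues. Copies shrink the apparent spread by construction. DESeq2 called 1, 2 and 5 for gland cadmium plus lead against untreated, against cadmium, and with lead, then 5, 5 and 6 for ganglia lead, cadmium plus lead, and cadmium plus lead against cadmium, and 11 between untreated tissues. With no low-count filter the numbers were 1, 1, 1 and 3 for gland lead, cadmium plus lead, cadmium plus lead against cadmium, and with lead, then 1, 4, 4 and 4 for ganglia cadmium, lead, cadmium plus lead, and cadmium plus lead against cadmium, and 5 between untreated tissues. Requiring 1 CPM gave 3 for gland with lead, 4 for ganglia lead and 7 between untreated tissues, where DESeq2 size factors gave 5. Fitting only the libraries compared gave 0 for ganglia lead and 0 between untreated tissues, with fewer samples. Removing the length trend gave 0 for gland with lead, 1 for ganglia lead and 3 for ganglia with lead, whose ZnT7, ZIP1a and Malvolio-a calls were lost (adjusted p of 0.102, 0.0553 and 0.06). The cause of these moves was not tested beyond what the settings themselves change.

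Leaving out each library in turn, the number called ranged from 17 to 21 between tissues over all exposures, 2 to 7 between untreated tissues, 2 to 6 for ganglia with lead, 0 to 3 for ganglia lead, and 0 to 4 for gland with lead. It ranged from 0 to 1 for each ganglia comparison of cadmium plus lead, and was 0 to 0 for ganglia cadmium, the interaction and the other gland comparisons. Ganglia with lead gave 3 without cadmium plus lead replicate 1 or 2 or cadmium replicate 2, and 2 without either lead replicate. Ganglia lead gave 0 without either lead replicate or untreated replicate 2 or 3. Gland with lead gave 0 without either cadmium plus lead replicate, any cadmium replicate or lead replicate 1, and 4 without untreated replicate 2. Untreated tissues gave 7 and 6 without gland untreated replicates 1 and 3, and 5 without ganglia untreated replicate 2 or either gland cadmium plus lead replicate.

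Libraries of different groups within a tissue were correlated after each group's mean log2(CPM + 1) was subtracted. The correlations are thus of deviations from group means, not of whole profiles. For same-numbered libraries they ran from -0.197 to 0.384 in the gland (median -0.043) and from -0.296 to 0.207 in the ganglia (median 0.0827). Those of differently numbered libraries ran from -0.492 to 0.337 (median 0.043) and from -0.317 to 0.317 (median -0.0548). In groups of 2 the libraries mirror each other, so these values cannot exclude a shared replicate effect. The main fit did not treat the numbers as pairs. With the replicate block, members called were 0 for gland with lead, 1 for ganglia lead and 4 for ganglia with lead. The block lost the ganglia with lead calls of ZIP1a (adjusted p = 0.077) and ZnT7 (0.105) and those of the myosin Cluster-16698.44898 in gland with lead (0.16) and ganglia lead (0.0501). DESeq2 size factors moved the median of all gland clusters to -0.273 for lead and -0.0305 for cadmium, against -0.148 and 0.0709 with TMM. Groups of 2 and 3 libraries and the split of library properties with lead limit all exposure comparisons.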
